A study of Homo sapiens with 2 samples.

Results

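The mitochondrial carriers of the SLC25 family were examined in the human glioblastoma line A172 and in a temozolomide-resistant clone of it. The family was taken as every row of the deposited table whose gene name is SLC25A followed by digits only, which gave 40 genes of the 15603 in the table. RNA of 2 cultures had been sequenced with a stranded mRNA kit: the resistant clone, labelled A172-r#6, grown with temozolomide, and the parental A172 line, grown without it. Both carry the label glioblastoma and differ at once in clone, selection and drug exposure, which cannot be told apart. Each group held 1 library and the clone is 1 line, so no value below has a replicate error and none has a p-value of this comparison. As a check of the label, the mesenchymal glioma genes VIM (804 FPKM in the resistant library, 632 FPKM in the parental library) and CD44 (161 and 83.1 FPKM) were high, while the stem-like glioma genes NES (5.08 and 33.7 FPKM) and SOX2 (0.253 and 2.23 FPKM) were low in the resistant library. The neural lineage genes OLIG2 (3.42 FPKM in the resistant and 1.43 FPKM in the parental library) and SYT1 (16.1 and 13.3 FPKM) were above 1 FPKM in both libraries. Other markers looked up had no row under their names: the astrocyte genes GFAP, S100B and AQP4, the oligodendrocyte gene MBP and the neuronal RBFOX3. The epithelial CDH1 and the endothelial VWF had none either. Of the defining genes of other cell types, 3 were under 1 FPKM in both libraries. These were the immune marker CD68 (0.434 and 0.690 FPKM), the epithelial EPCAM (0.669 and 0.797 FPKM) and the endothelial PECAM1 (0.0225 and 0.921 FPKM). The immune marker PTPRC had 0.485 FPKM in the resistant and 1.83 FPKM in the parental library, where it was above 1 FPKM and above OLIG2.

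SLC25 proteins sit mostly in the inner mitochondrial membrane, which is closed to charged metabolites, and carry nucleotides, phosphate, organic acids, amino acids, cofactors and metals between matrix and cytosol. Most are exchangers built from repeats of a pair of helices, and they reach the membrane through the outer-membrane receptor TOMM70, small chaperones of the intermembrane space and the TIM22 insertase. Together they couple oxidative phosphorylation, the malate-aspartate shuttle, citrate export, one-carbon metabolism and haem and iron-sulphur synthesis to the rest of the cell. Glioblastoma cells use several of these routes, among them glutamine-derived glutamate entry and serine and glycine metabolism.

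Levels are in FPKM, which counts fragments relative to transcript length and library depth, so levels of different genes can be compared per length. The fold of a gene is the log2 of (resistant FPKM + 1) over (parental FPKM + 1), with genes called higher or lower at 2-fold or more. Genes were compared where either library had 1 FPKM or more, which 38 of the 40 carriers had. No carrier was listed at 0 in either library. The 2 carriers under the filter were SLC25A27, the brain-expressed uncoupling protein 4 (0.795 FPKM in the resistant and 0.864 FPKM in the parental library), and SLC25A53, a carrier of unassigned substrate (0.482 and 0.821 FPKM). The carriers SLC25A18, SLC25A21, SLC25A31, SLC25A34, SLC25A41, SLC25A47, SLC25A48 and SLC25A52 had no row under these names and were not analysed here.

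Upstream sequence is shown for 2 pairs of related carriers, the pyrimidine nucleotide carriers SLC25A33 and SLC25A36, both with positive folds, and the aspartate/glutamate carriers SLC25A12 and SLC25A13, with folds of opposite sign. Each stretch is the part of the 250 bases before the RefSeq start (GRCh38.p14) that lies outside GENCODE exons, at chr1:9539215-9539464 (plus strand), chr3:140941586-140941829 (plus strand), chr2:171894253-171894494 (minus strand) and chr7:96322148-96322348 (minus strand). The SLC25A12 stretch lies inside the GENCODE span of that gene, 171784370 to 171999859, because GENCODE places the start further upstream than RefSeq. Capitals mark the cyclic AMP response element TGACGTCA, the E-box CACGTG and, in SLC25A13 alone of these, the antioxidant response element TGACNNNGC in reverse complement, which there overlaps the E-box.
SLC25A33: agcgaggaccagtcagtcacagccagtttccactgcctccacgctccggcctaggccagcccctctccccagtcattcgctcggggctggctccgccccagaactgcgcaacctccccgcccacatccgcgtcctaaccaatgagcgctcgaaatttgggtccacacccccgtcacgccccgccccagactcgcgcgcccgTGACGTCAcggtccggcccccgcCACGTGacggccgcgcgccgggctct
SLC25A36: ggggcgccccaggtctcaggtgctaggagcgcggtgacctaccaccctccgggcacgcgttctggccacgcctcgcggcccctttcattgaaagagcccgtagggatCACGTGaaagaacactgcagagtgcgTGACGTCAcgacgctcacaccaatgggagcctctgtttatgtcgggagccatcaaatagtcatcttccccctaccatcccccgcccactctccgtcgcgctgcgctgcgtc
SLC25A12: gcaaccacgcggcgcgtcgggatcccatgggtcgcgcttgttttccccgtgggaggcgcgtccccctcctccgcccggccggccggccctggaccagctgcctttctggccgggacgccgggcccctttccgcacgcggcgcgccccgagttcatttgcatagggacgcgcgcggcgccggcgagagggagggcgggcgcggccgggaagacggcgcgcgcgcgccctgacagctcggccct
SLC25A13: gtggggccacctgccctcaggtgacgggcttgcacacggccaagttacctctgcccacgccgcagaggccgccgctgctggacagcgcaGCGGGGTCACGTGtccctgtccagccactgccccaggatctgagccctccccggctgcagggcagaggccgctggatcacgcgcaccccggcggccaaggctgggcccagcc

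RefSeq upstream sequence was matched for 33 of the 40 carriers by symbol. SLC25A33 and SLC25A36 both hold TGACGTCA and CACGTG within 250 bases of the start. Both motifs occur together in 37 of the 27195 gene promoters in the table (0.136%), and in no other of the 33 carriers. On its own TGACGTCA occurs in 1.77% of all promoters and in 3 carriers, the third being SLC25A25 (log2 fold -0.09). CACGTG occurs in 6.5% of all promoters and in 6 carriers. Of these, SLC25A13 (log2 fold 0.52), SLC25A33 (0.67), SLC25A36 (0.32) and SLC25A38 (0.80) had positive folds. SLC25A46 (-0.23) and SLC25A51 (-0.15) had negative ones. TGACNNNGC occurs in 11.05% of all promoters and in 5 carriers (SLC25A1, SLC25A5, SLC25A13, SLC25A24 and SLC25A39). The ETS-type CCGGAAGT occurs in 3.65% and in 3 carriers. A link between motifs and folds was not tested. The ATF4-type TTGCATCA, the YY1-type AAGATGGCG and the ERR-type TCAAGGTCA were in none of the 33. All motifs were searched on both strands. Median G+C of the 250 upstream bases was 66.8% in the carriers and 58.0% over all promoters. Matches describe letters in a window and show no binding.

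The family as a whole was present at nearly the same level in both libraries. Summed over the 40 carriers, FPKM came to 872 in the resistant and 810 in the parental library, which was 0.269% and 0.270% of each library's total. Levels spanned more than 2 orders of magnitude, from 0.482 to 215 FPKM in the resistant library and from 0.821 to 192 FPKM in the parental library. In the higher of their 2 values, 5 carriers had 50 FPKM or more, 19 had 10 to 50 FPKM and 16 had less than 10 FPKM. The 5 carriers with the highest mean level, SLC25A3, SLC25A39, SLC25A6, SLC25A5 and SLC25A46, held 55.0% of the family sum in the resistant and 52.8% in the parental library.

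**Figure D1:**
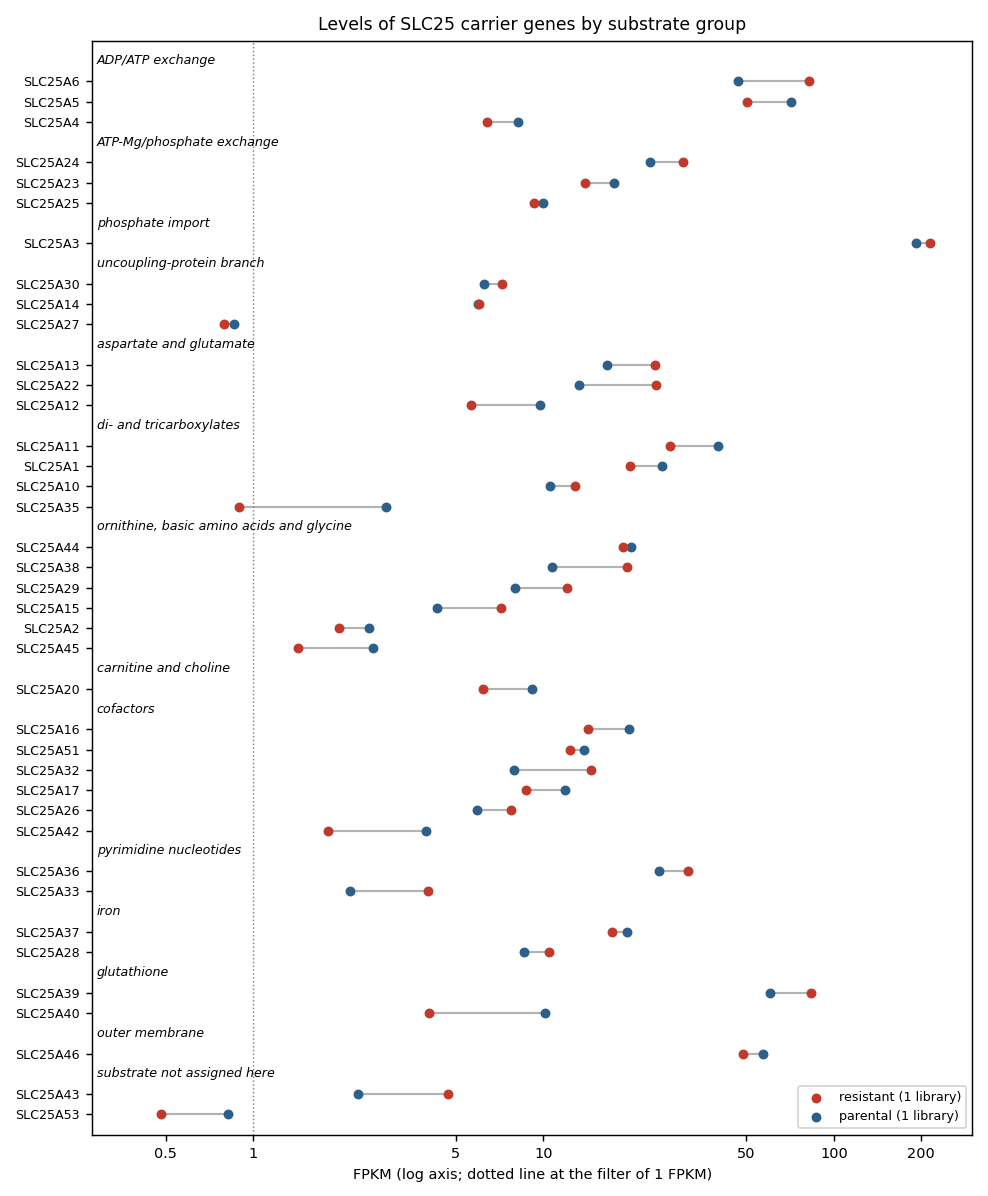
FPKM (log axis) of the SLC25 genes named in the text, grouped by what they carry, with the resistant library in red and the parental library in blue (1 library each, no error bars). SLC25A3 stands highest at 215 and 192 FPKM, and the longest lines belong to SLC25A35 and SLC25A40, both lower in the resistant library.

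No carrier was called higher, where 4.59% of the 13937 genes compared were, and 2 of 38 (5.26%) were called lower, against a background of 3.82%. The share called lower is near the background, and the family is described below by its members. With each library rescaled to the same total, 790 genes were higher and 1076 lower over the whole table, in place of 640 and 532, and 0 and 3 carriers were called. Folds ran from -1.14 to 0.82, with 19 carriers above 0 and 19 below, where 53.3% of all genes compared were above 0. The median log2 fold was -0.04 over the carriers and 0.04 over all genes, and the median size of the fold, whatever its sign, was 0.43 and 0.34. At a lower threshold of 1.5-fold, 7 carriers were higher (18.4%, against 14.5% of all genes) and 4 lower (10.5%, against 12.0%).

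**Figure D2:**
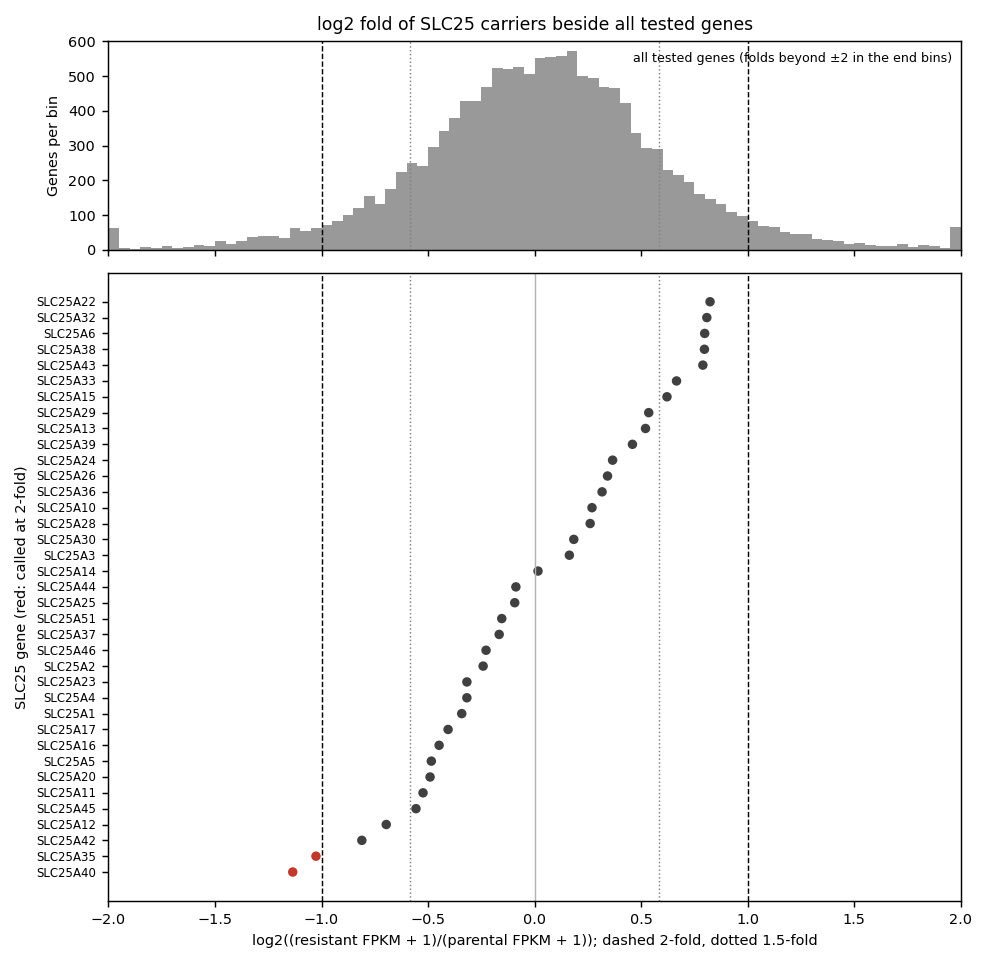
Upper panel, number of all compared genes by log2 fold, resistant over parental. Lower panel, the compared carriers named in the text in order of fold, with the 2 called lower, SLC25A40 (-1.14) and SLC25A35 (-1.03), in red, dashed lines at 2-fold and dotted lines at 1.5-fold. A cluster of 5 carriers lies between 0.79 and 0.82, under the 2-fold line.

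Of the glutathione carriers, 1 had the lowest fold of the family with the pseudocount of 1 FPKM and the other was among its most abundant genes. SLC25A39 and SLC25A40 are related carriers that bring glutathione, the main small thiol of the cell, into the matrix. SLC25A40 (ENSG00000075303, chromosome 7, 87833568 to 87876357, GRCh38, minus strand) had 4.05 FPKM in the resistant library, against 10.1 FPKM in the parental library. Fewer cells that express a gene and less of its RNA per cell cannot be told apart in such bulk libraries. Its log2 fold was -1.14, and by the plain ratio the parental value was 2.49 times the resistant one. SLC25A39 (ENSG00000013306, chromosome 17, 44319625 to 44324870, minus strand) had 83.2 FPKM in the resistant and 60.3 FPKM in the parental library (log2 fold 0.46). The carriers thus lay on opposite sides of 0, and the abundant one was the higher in the resistant library. Their summed level was 87.3 FPKM in the resistant and 70.4 FPKM in the parental library. SLC25A40 made up 4.64% of that sum in the resistant and 14.3% in the parental library. For SLC25A40 the authors' deposited table gives a q-value of 0.0651 and for SLC25A39 one of 0.121, from a comparison of these same 2 libraries, not of the conditions. SLC25A40 starts 141 bases from DBF4, a regulator of replication origins, on the opposite strand, and their exons overlap. DBF4 had 9.76 FPKM in the resistant and 11.4 FPKM in the parental library. Whether strand was used in counting is not given in the sources used here, so reads in the overlap cannot be told apart.

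Enzymes that make and use glutathione mostly had positive folds. Of the 11 genes of glutathione synthesis and carrier turnover, 1 was called higher, none lower, and all 11 had positive folds (median 0.58), or 10 of 11 with upper quartile scaling or with libraries rescaled to 1 total. GCLM, the modifier subunit of the rate-limiting ligase, had 15.1 FPKM in the resistant and 5.50 FPKM in the parental library (log2 fold 1.31). Its catalytic partner GCLC had 10.8 and 5.67 FPKM, and the peroxidase GPX1, the most abundant of the list, had 183 and 104 FPKM, both under the threshold. AFG3L2, the matrix protease that degrades SLC25A39 when glutathione is plentiful, had 20.8 FPKM in the resistant and 17.2 FPKM in the parental library. TGACNNNGC, the element read by NRF2, was in 5 of the 33 carriers (15.2%), beside 11.05% of all promoters. Of these carriers, SLC25A13 (0.52), SLC25A24 (0.37) and SLC25A39 (0.46) had positive folds. SLC25A1 (-0.34) and SLC25A5 (-0.48) had negative ones, and action of NRF2 was not tested. The upstream stretch of SLC25A39 outside exons, chr17:44324871-44325073 (minus strand), is shown as 1 of the 5, with the match, in reverse complement, in capitals.
SLC25A39: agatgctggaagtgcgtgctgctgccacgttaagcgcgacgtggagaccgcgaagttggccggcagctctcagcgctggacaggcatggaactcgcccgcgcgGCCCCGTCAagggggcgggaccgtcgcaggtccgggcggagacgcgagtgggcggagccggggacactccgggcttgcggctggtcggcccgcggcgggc

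The order of the ADP/ATP carriers differed between the libraries. They hand matrix ATP to the cytosol in exchange for ADP, SLC25A4 (ANT1) chiefly in heart and muscle, SLC25A5 (ANT2) in dividing cells and SLC25A6 (ANT3) widely. SLC25A6 (ENSG00000169100, chromosome X, 1386152 to 1392724, minus strand, in the pseudoautosomal region shared with Y) had 82.2 FPKM in the resistant and 46.8 FPKM in the parental library (log2 fold 0.80). SLC25A5 (ENSG00000005022, chromosome X, 119468400 to 119471319, plus strand) had 50.4 and 71.0 FPKM (log2 fold -0.48), and SLC25A4 had 6.38 and 8.20 FPKM (-0.32). SLC25A6 was the most abundant of them in the resistant library and SLC25A5 in the parental one, and none reached 2-fold. Their sum was 139 FPKM in the resistant and 126 FPKM in the parental library, with SLC25A6 at 59.1% and 37.2% of it and SLC25A5 at 36.3% and 56.3%. Both values are uncertain, because GENCODE lists 9 pseudogenes named after SLC25A5 and 6 named after SLC25A6, whose copies can share reads. SLC25A5 also overlaps the antisense RNA SLC25A5-AS1, at 0.616 FPKM in the resistant and 0.353 FPKM in the parental library.

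**Figure D3:**
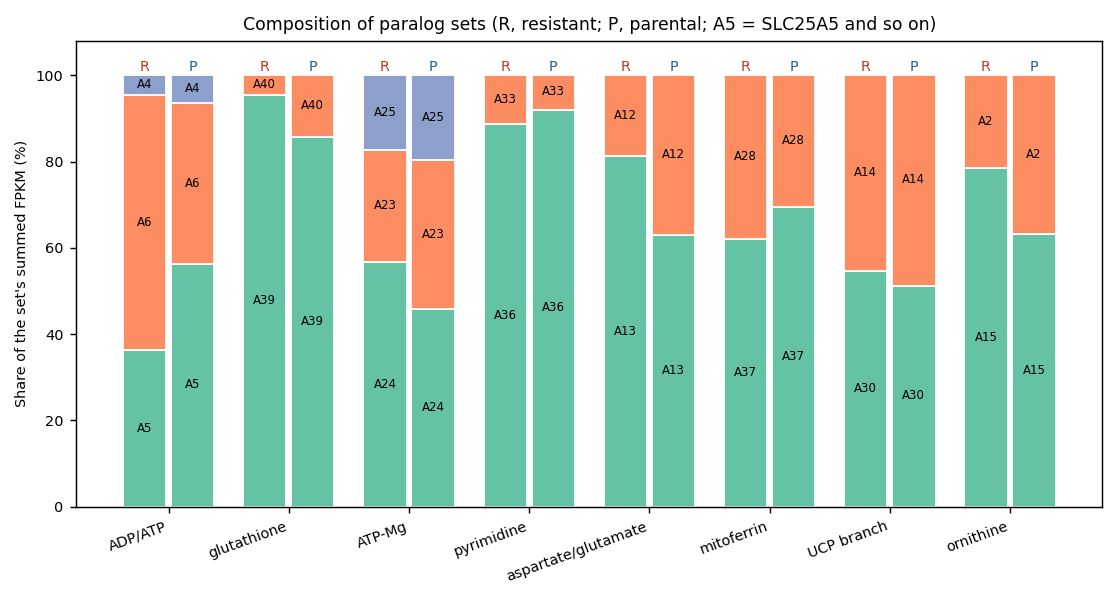
Share (%) of each gene in the summed FPKM of its paralog set, with the resistant library (R) left of the parental library (P). The largest shifts are in the ADP/ATP set, where SLC25A6 holds 59.1% in the resistant and 37.2% in the parental library, and in the aspartate/glutamate set, where SLC25A13 holds 81.2% and 63.1%.

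The phosphate carrier and the calcium-regulated ATP-Mg/phosphate carriers differed little. SLC25A3, which imports the phosphate for ATP synthesis, was the most abundant carrier in both libraries, at 215 FPKM in the resistant and 192 FPKM in the parental library (log2 fold 0.16), and ranked 156 among all genes by mean level. SLC25A24 had 30.3 and 23.3 FPKM, SLC25A23 had 13.9 and 17.5 FPKM and SLC25A25 had 9.31 and 10.003 FPKM. These carriers adjust the matrix pool of adenine nucleotides, and their sum was 53.5 FPKM in the resistant and 50.8 FPKM in the parental library. SLC25A24 made up 56.6% and 45.8% of it. In the uncoupling-protein branch, SLC25A14 had 6.01 FPKM in the resistant and 5.93 FPKM in the parental library and SLC25A30 had 7.22 and 6.24 FPKM. The SLC25 proteins with other symbols were also under the threshold, with UCP2, which limits matrix superoxide and exports organic acids, at 24.2 FPKM in the resistant and 33.7 FPKM in the parental library, MTCH2 at 57.0 and 63.9 FPKM and MTCH1 at 37.4 and 40.3 FPKM. UCP3 stayed under the filter at 0.158 and 0.673 FPKM.

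Among the aspartate and glutamate carriers, 2 had positive folds and 1 a negative one. SLC25A22, which brings glutamate into the matrix with a proton, had 24.3 FPKM in the resistant and 13.3 FPKM in the parental library (log2 fold 0.82). That fold was the highest of the family with the pseudocount of 1 FPKM, while by plain ratio SLC25A43 (2.04), SLC25A33 (1.86) and SLC25A32 (1.85) stood above SLC25A22 (1.83). SLC25A22 (ENSG00000177542) lies on chromosome 11 from 790475 to 798333 on the minus strand and shares exons on the opposite strand with PANO1, at 1.23 and 1.17 FPKM. Its q-value of 0.0117, from the authors' deposited table, was 1 of 2 among the carriers under 0.05, where 5.13% of all genes were under it and higher and 3.98% under it and lower. SLC25A13 (citrin; ENSG00000004864, chromosome 7, 96120220 to 96322147, minus strand) had 24.3 FPKM in the resistant and 16.6 FPKM in the parental library (log2 fold 0.52). SLC25A12 (aralar; ENSG00000115840, chromosome 2, 171784370 to 171999859, minus strand) had 5.62 and 9.73 FPKM (-0.70). Both export aspartate for glutamate under calcium control, as part of the malate-aspartate shuttle. SLC25A13 made up 81.2% of their sum in the resistant and 63.1% in the parental library, while the sum was 29.9 and 26.3 FPKM. SLC25A12 shares exons on the opposite strand with METAP1D, at 4.67 FPKM in the resistant and 5.81 FPKM in the parental library.

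Enzymes of the malate-aspartate shuttle and glutamate use mostly had positive folds, 7 of the 9 genes compared (median 0.38), with 1 called higher. ASNS, which makes asparagine from aspartate, had 143 FPKM in the resistant and 61.9 FPKM in the parental library (log2 fold 1.2). GOT1, the cytosolic aminotransferase of the shuttle, had 29.6 and 16.8 FPKM and its matrix partner GOT2 had 46.4 and 36.7 FPKM, both under the threshold. MDH1, the cytosolic malate dehydrogenase, had 63.4 FPKM in the resistant and 96.8 FPKM in the parental library.

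The other carrier called lower belongs with the di- and tricarboxylate carriers by sequence. SLC25A35 (ENSG00000125434, chromosome 17, 8287763 to 8295343, minus strand), whose substrate is not firmly established, had 0.895 FPKM in the resistant and 2.86 FPKM in the parental library (log2 fold -1.03). Its plain ratio was the largest of the family, the parental value being 3.19 times the resistant one, and its q-value in the authors' deposited table was 0.00551. It lies close to the filter of 1 FPKM, and it shares exons on the opposite strand with RANGRF, at 10.02 and 8.68 FPKM. The organic acid carriers of known substrate were more abundant and under the threshold. SLC25A1, which exports citrate for lipid synthesis, had 19.9 FPKM in the resistant and 25.5 FPKM in the parental library. SLC25A11, the oxoglutarate/malate exchanger of the malate-aspartate shuttle, had 27.4 and 39.8 FPKM, and SLC25A10, the dicarboxylate carrier, had 12.9 and 10.5 FPKM. SLC25A11 shares exons on the opposite strand with RNF167, at 30.2 and 39.0 FPKM. SLC25A20, the carnitine/acylcarnitine exchanger that admits fatty acids for oxidation, had 6.21 FPKM in the resistant and 9.13 FPKM in the parental library (log2 fold -0.49).

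Enzymes that use these acids were mostly under the threshold as well. Of 13 citrate, dicarboxylate and pyruvate genes, 1 was higher and 1 lower (median 0.01). IDH2, the matrix NADP-dependent isocitrate dehydrogenase, had 6.99 FPKM in the resistant and 23.7 FPKM in the parental library (log2 fold -1.63). PCK2, the matrix phosphoenolpyruvate carboxykinase, had 30.7 and 14.8 FPKM (1.004) and fell under 2-fold with each of the rescalings tried, at 0.93 to 0.96. ACLY, which splits exported citrate and was the most abundant of the list, had 90.6 FPKM in the resistant and 126 FPKM in the parental library. None of 15 genes of the carnitine system and fatty acid oxidation was called, and 12 of them had negative folds (median -0.23), as SLC25A20 did. ACADVL, the very-long-chain acyl-CoA dehydrogenase and the most abundant of that list, had 97.4 FPKM in the resistant and 161 FPKM in the parental library.

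Of the 6 carriers of ornithine, basic and branched-chain amino acids and glycine, 2 were at least 1.5-fold higher in the resistant library. Of all genes compared, 14.5% were. SLC25A38, which brings glycine into the matrix for haem synthesis, had 19.3 FPKM in the resistant and 10.7 FPKM in the parental library (log2 fold 0.80). SLC25A15, the ornithine carrier of the urea cycle, had 7.16 and 4.31 FPKM (0.62). The values of SLC25A15 are uncertain, because GENCODE lists 5 pseudogenes named after it, whose copies can share reads. SLC25A29, a carrier of basic amino acids, had 12.0 and 7.99 FPKM (0.54), just under 1.5-fold. SLC25A44, which carries branched-chain amino acids and was the most abundant of the group in the parental library, had 18.8 FPKM in the resistant and 20.03 FPKM in the parental library. The lowest levels were those of SLC25A2, an intronless relative of SLC25A15, at 1.97 and 2.51 FPKM, and SLC25A45, at 1.43 and 2.58 FPKM. SLC25A15 and SLC25A2 together had 9.13 FPKM in the resistant and 6.82 FPKM in the parental library, of which SLC25A15 made up 78.4% and 63.1%.

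Enzymes around ornithine, arginine, proline and glycine held 4 called genes of 14. Of the 14, 3 were higher (21.4%) and 1 lower (7.14%), beside 4.59% and 3.82% of all genes. OAT, the matrix ornithine aminotransferase, was lower, at 12.5 FPKM in the resistant and 27.4 FPKM in the parental library (log2 fold -1.08). ODC1, which turns ornithine into putrescine and was the most abundant of the list, was higher, at 77.5 and 35.5 FPKM (1.11). PYCR1, the last enzyme of proline synthesis, had 61.4 and 26.7 FPKM (1.17), and BCAT1, the cytosolic branched-chain aminotransferase, had 32.8 and 11.4 FPKM (1.45). The list median was -0.07, and 7 of the 10 genes under the threshold had negative folds. ALAS1, which joins glycine to succinyl-CoA in the first step of haem synthesis, had 21.7 FPKM in the resistant and 22.5 FPKM in the parental library.

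The cofactor carriers were split. SLC25A32, which brings folate and flavin into the matrix, had 14.6 FPKM in the resistant and 7.90 FPKM in the parental library (log2 fold 0.81). It shares exons on the opposite strand with DCAF13, at 26.7 and 20.6 FPKM. SLC25A42 (ENSG00000181035, chromosome 19, 19063999 to 19112888, plus strand), a coenzyme A carrier, had 1.81 FPKM in the resistant and 3.94 FPKM in the parental library (-0.81). By the plain ratio its parental value was 2.17 times the resistant one, so the pseudocount kept it under the threshold: with a pseudocount of 0.1 FPKM its log2 fold was -1.08. The rest of the group lay under 1.5-fold. SLC25A26, the S-adenosylmethionine carrier, had 7.73 and 5.89 FPKM, and SLC25A51, the NAD carrier, had 12.3 and 13.8 FPKM. SLC25A17, which serves peroxisomes, had 8.68 FPKM in the resistant and 11.8 FPKM in the parental library, and SLC25A16, the most abundant of the group in the parental library, had 14.2 and 19.8 FPKM. The stretch upstream of SLC25A42, chr19:19063744-19063993 (plus strand), is shown because SLC25A42 was called lower with the smaller pseudocounts, and it held none of the motifs searched.
SLC25A42: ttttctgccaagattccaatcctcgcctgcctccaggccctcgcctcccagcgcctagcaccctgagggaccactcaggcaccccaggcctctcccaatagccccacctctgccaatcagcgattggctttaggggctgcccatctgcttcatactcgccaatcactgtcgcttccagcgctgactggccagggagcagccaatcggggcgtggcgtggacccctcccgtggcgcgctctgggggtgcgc

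Of 25 genes of folate, S-adenosylmethionine, coenzyme A, thiamine and NAD metabolism, 3 were called higher (12.0%, beside 4.59% of all genes) and none lower. Positive folds were found in 21 (median 0.14), or 17 to 19 with the rescalings. MTHFD1L, the matrix formate-producing enzyme of the folate cycle that SLC25A32 supplies, had 25.4 FPKM in the resistant and 10.9 FPKM in the parental library (log2 fold 1.15). In the same matrix pathway SHMT2 had 140 and 90.8 FPKM and MTHFD2 had 121 and 66.3 FPKM, both under 2-fold. NAMPT, the rate-limiting enzyme of NAD salvage, had 44.4 and 15.1 FPKM (1.49). PPCS, an enzyme of coenzyme A synthesis, had 9.05 and 3.97 FPKM (1.02) and dropped under 2-fold with upper quartile scaling and with the median fold set to 0. MAT2A, which makes S-adenosylmethionine and was the most abundant of the list, had 183 FPKM in the resistant and 170 FPKM in the parental library.

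Both pyrimidine nucleotide carriers had positive folds. SLC25A33 had 4.02 FPKM in the resistant and 2.16 FPKM in the parental library (log2 fold 0.67), and SLC25A36 had 31.4 and 25.02 FPKM (0.32). They supply the matrix with nucleotides for mitochondrial DNA and RNA synthesis. SLC25A36 made up most of their sum in each library, 88.7% in the resistant and 92.0% in the parental one. SLC25A43, a carrier of unassigned substrate, had 4.71 FPKM in the resistant and 2.30 FPKM in the parental library (log2 fold 0.79), a plain ratio of 2.04. With a pseudocount of 0.1 FPKM its log2 fold was 1.0006, and it was then called higher.

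The iron carriers kept nearly the same sum. SLC25A37 (mitoferrin 1), best known from red cell precursors, had 17.2 FPKM in the resistant and 19.4 FPKM in the parental library, and the widely expressed SLC25A28 (mitoferrin 2) had 10.5 and 8.57 FPKM. Summed, they had 27.6 FPKM in the resistant and 28.0 FPKM in the parental library. Of 15 genes of iron, haem and iron-sulphur synthesis, 1 was higher and 1 lower (median 0.07). The ferritin light chain FTL had 417 and 180 FPKM (log2 fold 1.21), and ALAD, the second enzyme of haem synthesis, had 2.69 and 7.0 FPKM (-1.12). FTH1, the most abundant of the list, had 589 FPKM in the resistant and 310 FPKM in the parental library, under the threshold, and processed copies of the ferritin genes can share their reads.

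SLC25A46, an outer-membrane member known from mitochondrial fission and lipid transfer, had 48.7 FPKM in the resistant and 57.2 FPKM in the parental library (log2 fold -0.23). None of the 10 genes of mitochondrial fusion and fission was called (median 0.04), with the fusion GTPases MFN1 at 19.8 and 31.5 FPKM and OPA1 at 29.6 and 41.2 FPKM, and the protease YME1L1, the most abundant of the list, at 52.9 and 65.3 FPKM. The genes that import carriers lay above 0 in 14 of 16 cases, with 1 called higher and none lower (median 0.37). With libraries rescaled to 1 total, 13 of 16 lay above 0 (median 0.30). Of all genes in the main comparison, 53.3% lay above 0 (median 0.04). TIMM9, a small chaperone that escorts carriers across the intermembrane space, had 11.0 FPKM in the resistant and 4.83 FPKM in the parental library (log2 fold 1.04). TOMM20, a receptor of the outer membrane and the most abundant of the list, had 90.7 and 67.1 FPKM, and the carrier receptor TOMM70 had 23.1 and 16.7 FPKM. TIMM22, the pore that inserts carriers, had 10.9 and 10.2 FPKM. TIMM9 dropped to 0.97 with upper quartile scaling.

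Of 24 other mitochondrial transporters compared, 1 was called lower and none higher (median -0.01). SFXN5, a sideroflexin, had 3.07 FPKM in the resistant and 9.37 FPKM in the parental library (log2 fold -1.35). VDAC3, an outer-membrane channel, had 71.6 and 144 FPKM and stayed just under the threshold at -0.99, while VDAC2, the most abundant of the list, had 154 and 121 FPKM. MPC1 had 13.1 FPKM in the resistant and 13.4 FPKM in the parental library and MPC2, with which it forms the pyruvate carrier, had 18.005 and 13.4 FPKM. SFXN1, a serine carrier that feeds the matrix folate cycle, had 21.6 FPKM in the resistant and 14.1 FPKM in the parental library.

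Over all 11 of these lists, 11 of 155 genes compared were called higher (7.10%) and 5 lower (3.23%), beside 4.59% and 3.82% of all genes, with a median of 0.11. None of the 12 factors of mitochondrial biogenesis was called, and 10 had positive folds (median 0.34), or 9 with each of the rescalings. Of all genes compared, 53.3% had positive folds in the main comparison. The coactivator PPARGC1A had 0.499 FPKM in the resistant and 1.64 FPKM in the parental library, and TFAM, which packages mitochondrial DNA, had 14.6 and 10.8 FPKM. These lists, like the substrate groups, were drawn up from general knowledge.

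**Figure D4:**
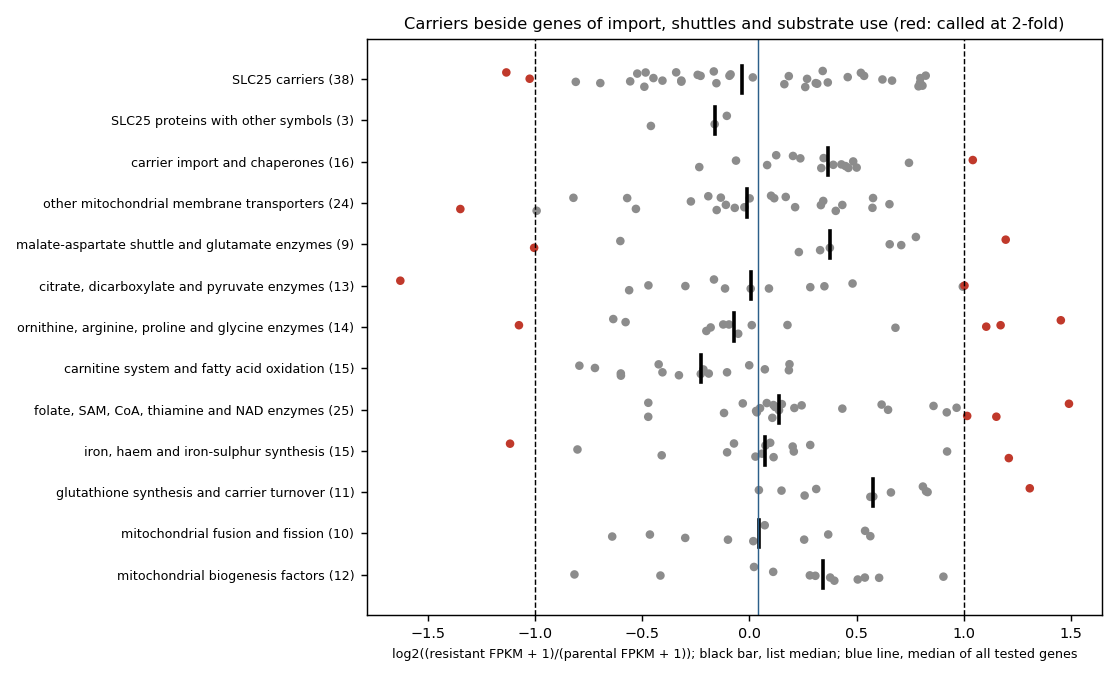
Log2 fold, resistant over parental, of the 38 carriers and of the compared genes of 12 further lists, 1 point a gene, with the number of genes in brackets, list medians as black bars and called genes in red. The carriers spread to both sides of 0 (median -0.04), while the import list (0.37) and the glutathione list (0.58) lie mostly to the right.

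The signs of the folds were also counted within paralog sets. Of 8 paralog sets with 2 or more compared members, 18 genes in all, 6 had members on both sides of 0 and 2, the pyrimidine carriers and the pair SLC25A14 and SLC25A30, had all members above 0. With each of the rescalings tried SLC25A14, at 0.02 in the main comparison, fell below 0, so that this pair then lay on both sides of 0. Some of the signs rest on folds near 0, such as SLC25A25 (-0.09) and SLC25A37 (-0.17). Of all carriers compared, 19 lay above 0 and 19 below. No share for sets of unrelated genes is given here, so the count is not read as a trait of the family. The summed level of each of the 8 sets stayed within 1.5-fold between the libraries, from a plain ratio of 0.988 for the mitoferrins to 1.34 for SLC25A15 with SLC25A2.

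The carriers lie on 18 chromosomes, and their folds were set beside those of their neighbours. For each carrier the median log2 fold of the 10 nearest compared genes on each side was taken, or fewer at a chromosome end. It had the sign of the carrier in 22 of 38 cases. No such share over all genes compared is given here, so this count is not read as a link to the neighbours. Around SLC25A40 the neighbours had a median of 0.24 and around SLC25A42 one of 0.37, against folds of -1.14 and -0.81 for the carriers themselves. Around SLC25A35 it was -0.37, of the same sign as the carrier at -1.03. Of the 7 carriers at least 1.5-fold higher, 4 had neighbours with a positive median, among them SLC25A22 (0.30) and SLC25A32 (0.22), while SLC25A15 on chromosome 13 had -0.37. SLC25A2, which lies on 5q beside the protocadherin clusters, had the lowest neighbour median, at -0.60. Copy number was not measured.

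**Figure D5:**
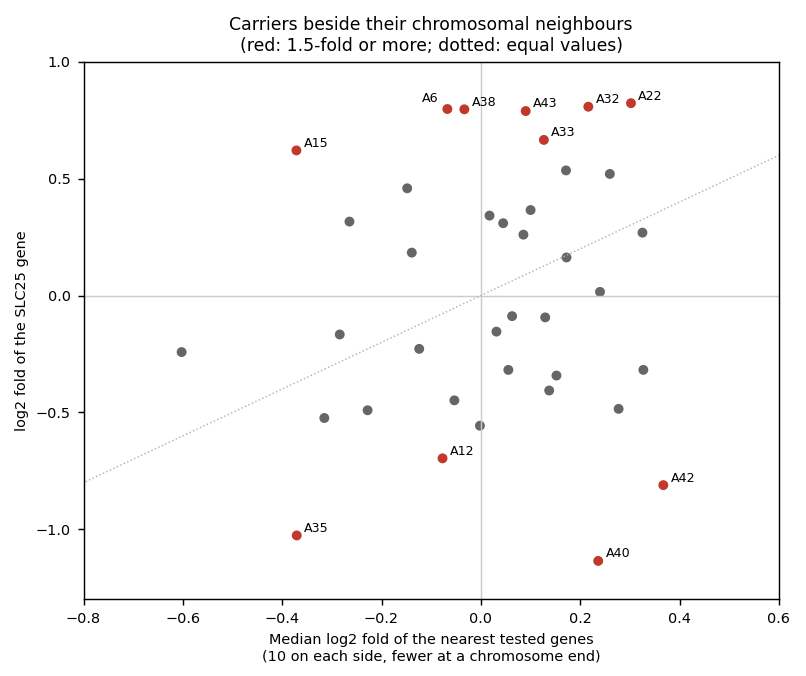
Log2 fold of each of the 38 carriers against the median log2 fold of its nearest compared genes on the chromosome (10 on each side, fewer at an end), with carriers at 1.5-fold or more in red and labelled without the SLC25 prefix. SLC25A40 and SLC25A42 lie in the lower right, below neighbours with positive medians, and SLC25A15 in the upper left.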

How the data were processed

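The labels name 1 library for the resistant clone and 1 for parental A172, made with a stranded mRNA kit. Per the file headers, the authors deposited FPKM for each library, with their log2 ratio of resistant over parental and the p-values and q-values of their own comparison. The aligner, quantifier, build and test they used, and their use of strand, are not given in the labels or headers used here. Depth is unknown, so no counting interval is given.

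Folds were log2 of FPKM plus a pseudocount of 1, over 13937 genes with 1 FPKM or more in either library (Python 3.11.15, pandas 2.3.3). With 1 library in each group there was no spread to test against, and no p-values were derived. The calling rule was tested on simulated data, with planted changes well above 2-fold in genes of 5 FPKM or more. That test does not bear on folds close to the threshold, such as those of SLC25A40 and SLC25A35. The carriers, substrate groups, lists and motifs were chosen with earlier results of these data known. Named were the carriers and, from each list, called genes up to 4 by size of fold and the most abundant gene, while other list genes were chosen after their values were seen. Some genes that this rule names are not reported here. GENCODE release 29 (GRCh38) gave positions, and 38 of 40 carriers lay wholly inside the locus in the table, all but SLC25A36 and SLC25A38. Of the carriers, 18 shared a merged locus with other genes, and 11 shared exons with a listed gene on the opposite strand and none with one on the same strand. Upstream sequences are from RefSeq (GRCh38.p14). Alternatives were the pseudocount, the filter, the threshold, 3 rescalings and leaving out genes at 0 in 1 library.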

Additional observations from a re-analysis of the deposited data

How the results depend on the processing

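Over all genes, 1076 were higher and 1029 lower with a pseudocount of 0.1 FPKM, 1134 and 1083 with 0.01 FPKM, 2020 and 1674 at 1.5-fold, and 61 and 59 at 4-fold, in place of 640 and 532. With either smaller pseudocount 1 carrier, SLC25A43, was called higher, and SLC25A42 joined the 2 called lower. At 1.5-fold 7 carriers were higher and 4 lower, and 28 and 15 list genes. At 4-fold 0 carriers and 0 list genes were called in either direction. With a filter of 5 FPKM, which drops SLC25A35, 1 carrier was lower. Rescaling each library to a total of 1000000 moved the median of all genes to -0.06 and that of the carriers to -0.15, and also shrinks the weight of the pseudocount, since FPKM totals were 323932 and 299594. SLC25A40 was called lower under every alternative except the 4-fold threshold. No paired analysis was possible because each group holds 1 library, and for the same reason no library could be left out. Depth is unknown, so the precision of carriers near 1 FPKM cannot be given.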

Other observations

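Rows of the table that carry an SLC25 name but are no carrier gene were low. The processed pseudogene SLC25A5P4 on chromosome 13 had 0.727 FPKM in the resistant library and was listed at 0 in the parental one. The antisense RNA SLC25A25-AS1 had 1.32 FPKM in the resistant and 2.004 FPKM in the parental library, beside SLC25A25 at 9.31 and 10.003 FPKM. SLC25A25 also starts 5 bases from NAIF1, a nuclear apoptosis factor on the opposite strand, at 7.15 and 8.22 FPKM. SLC25A26 shares exons on the opposite strand with LRIG1, an inhibitor of growth factor receptors, at 10.5 FPKM in the resistant and 17.8 FPKM in the parental library, where SLC25A26 itself had 7.73 and 5.89 FPKM.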
